A study of Mus musculus with 18 samples.

Results

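Protein folding and protein disposal genes were followed in mouse liver: helpers of proteasome assembly, proteasome activators and an inhibitor, proteasome-bound deubiquitinases, the p97 adaptors, ubiquitin shuttles, cytosolic heat shock chaperones, chaperones of the endoplasmic reticulum (ER), signalling genes of the unfolded protein response (UPR) and genes of ER-associated degradation (ERAD). They were chosen by name, as a list of 51 genes. Of these, 42 had a probe set that the platform annotation assigns to a single gene, among 17097 genes measured in all. The 9 others, Psme4, Adrm1, Ddi2, Vcp, Ubb, Uba1, Sqstm1, Hsf1 and Hsp90ab1, were not analysed here. Liver RNA came from female mice aged 6 to 8 weeks and was read on 18 Affymetrix arrays. The chronic model set NPC1L1-Liver-Transgenic mice (n = 5) against wild type mice (n = 5), both of strain C57BL/6. The acute model set mice given an antisense oligonucleotide (ASO) for knockdown of ACAT2 (n = 4) against mice given a non-targeting control ASO (n = 4), both of strain C57BL/6N. Both were used as models of raised transintestinal cholesterol excretion, in which cholesterol leaves the body across the gut wall instead of in bile. The labels do not state that the replicates are separate animals, so the p-values reflect how far these samples differ, and that spread may be technical. The promoter of the transgene, the number of founder lines, and the dose and length of ASO treatment do not appear in the labels.

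The proteasome is a barrel-shaped protease, the 20S core, whose ends are bound by 19S caps or by 11S activators. Ubiquitin-tagged proteins reach it through shuttle proteins, and the ATPase p97 (Vcp) pulls tagged proteins out of membranes and complexes first. In the cytosol, heat shock chaperones hold and refold proteins under the control of the factor HSF1. In the ER, which is extensive in hepatocytes because they secrete most plasma proteins, the sensors IRE1 (Ern1), PERK (Eif2ak3) and ATF6 detect unfolded proteins, and the UPR then raises chaperones and the ERAD machinery that returns misfolded proteins to the proteasome.

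Promoter sequence was read for these genes because their chaperones are known as classic UPR targets, and because the ER chaperone genes varied together across arrays, as described further on. RefSeq (GRCm38.p6) gave windows of 300 bases, from 250 before to 50 after a gene's start, for 43 of the 51 listed genes (55 windows, since some genes have several starts). The ER stress element, searched on both strands as CCAAT and CCACG with any 9 bases between them, was found in 7 of the 55 windows (12.7%), against 39 of 32851 windows of all genes (0.119%). It is bound by NF-Y and ATF6, and 6 of the 9 windows of ER chaperone genes held it. The list was chosen by name and holds these chaperones as known UPR targets, so this excess is not independent evidence about them. The matches are written 5′ to 3′ in the direction of the motif, with its fixed letters in capitals.
Hspa5, chr2:34772025-34772043: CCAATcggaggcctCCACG
Hsp90b1, chr10:86705638-86705656: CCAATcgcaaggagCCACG
Hsp90b1, chr10:86705533-86705551: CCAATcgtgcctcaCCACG
Calr, chr8:84847075-84847093: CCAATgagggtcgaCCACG
Canx, chr11:50325800-50325818: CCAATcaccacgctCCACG
Dnajc3, chr14:118937827-118937845: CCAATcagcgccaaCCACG
Pdia6, chr12:17266491-17266509: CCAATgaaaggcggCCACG
Syvn1, chr19:6046532-6046550: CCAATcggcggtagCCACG
Counted from the start, the Hspa5 match runs over bases -65 to -47. Hsp90b1 holds 2 matches, on opposite strands.

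The shorter form, ATTGG and CCACG with any 1 base between them, shares its last letters with the longer one. It was found in 12 of all windows (0.0365%), and among the listed genes only in that of Herpud1. A heat shock element is 3 units, GAA, TTC and GAA, each 2 bases apart. It lies just after the start of Hsph1 and was also found for Nploc4. It was in 3 of the 55 windows (5.45%, 2 of them of Hsph1), against 0.603% of all windows. Only 5 of the 9 listed heat shock genes had a window, so the others were not searched. An interferon-stimulated response element, a pair of GAAA units 2 bases apart, was found for Psme1 alone. That is 1 of the 55 windows (1.82%), a lower share than the 3.44% of all windows.
Herpud1, chr8:94386377-94386387: ATTGGgCCACG
Hsph1, chr5:149636288-149636300: GAActTTCcaGAA
Nploc4, chr11:120437864-120437876: GAActTTCagGAA
Psme1, chr14:55578503-55578512: GAAAgcGAAA
The antioxidant response element, TGACNNNGC, which NRF1 also binds, was found in 12 of the 55 windows (21.8%), against 12.4% of all windows. None of the 55 windows held TGATGNAAT, an amino acid response element of ATF4 targets (0.965% of all windows). TGACGTGG, an element bound by XBP1, was found for Nfe2l1, Uchl5 and Vcp, in 3 of the 55 windows (5.45%), against 0.676% of all windows. In Vcp it overlaps an antioxidant element. The matches describe the letters of these windows and show no binding.

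The 250 bases before the start of Hspa5 and of Dnajc3 show how the element is placed. Hspa5 had a mean change near 0 in both models. Of the ER chaperone genes, Dnajc3 had the widest gap between the models by its brightest probe set, though its other probe sets were divided. Capitals mark the element.
Hspa5, chr2:34771840-34772089, plus strand: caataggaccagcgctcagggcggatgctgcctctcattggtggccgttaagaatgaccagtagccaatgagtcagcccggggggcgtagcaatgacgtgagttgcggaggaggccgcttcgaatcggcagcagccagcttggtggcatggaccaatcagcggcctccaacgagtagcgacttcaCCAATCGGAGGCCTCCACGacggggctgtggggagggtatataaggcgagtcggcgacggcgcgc
Dnajc3, chr14:118937682-118937931, plus strand: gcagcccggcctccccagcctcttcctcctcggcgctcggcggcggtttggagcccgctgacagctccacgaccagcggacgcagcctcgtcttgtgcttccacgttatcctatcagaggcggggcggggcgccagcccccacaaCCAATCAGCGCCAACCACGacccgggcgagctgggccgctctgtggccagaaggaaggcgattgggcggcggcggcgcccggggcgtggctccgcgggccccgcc

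Levels are log2 RMA values, the summary of a probe set's signal, and are compared here only within a gene and within a model. Hepatocyte markers (7 of 7 measured) were the highest of the marker lists on every array, with a mean level between 12.20 and 12.69 (log2) in transgenic and between 12.38 and 12.73 in wild type liver, and between 12.51 and 12.70 after ACAT2 ASO and between 12.60 and 12.70 after control ASO. Markers of Kupffer cells, the resident macrophages of liver, stood apart on 3 arrays. All 8 were above their group mean on wild type array 2, ACAT2 ASO array 1 and control ASO array 4, by 1.14, 1.06 and 1.04 on average. Wild type 2 also stood low for clock genes, which follow the hour of sampling: 13 of 14 lay below the group mean there, by 0.36 on average. On ACAT2 ASO 1, 10 of 11 immediate early genes lay below the group mean. The part of either in the values of these arrays was not tested. As a check of RNA quality, the 3′ minus 5′ signal of Actb lay between 0.89 and 1.26 on transgenic and between 0.83 and 1.02 on wild type arrays, and between 0.92 and 1.18 on ACAT2 ASO and between 0.99 and 1.09 on control ASO arrays. The mouse Npc1l1 probe set, near the lower end of the scale, read 3.68 ± 0.07 on the transgenic and 3.82 ± 0.22 on the wild type arrays (SD, n = 5 each). It need not read a transgene, so it does not check the label. Soat2, which encodes ACAT2, was not analysed here.

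None of the 42 genes passed the test in either model. With limma's moderated test and Benjamini-Hochberg adjustment over 17097 genes, 0 of 42 were called at an adjusted p under 0.05 in transgenic against wild type liver, where 0.228% of all genes were called, and 0 of 42 after ACAT2 ASO against control ASO, where 0.597% were. At an unadjusted limma p under 0.05, 11 of 42 (26.2%) stood out in the transgenic model, beside 10.9% of all genes. Of these, 9 were above wild type, beside 6.36% of all genes, and 2 below, beside 4.52%. After ACAT2 ASO the number was 8 of 42 (19%), beside 13.3% of all genes. Of these, 5 were above control ASO, beside 5.68% of all genes, and 3 below, beside 7.63%. The median log2 change of the 42 was 0.08 in the transgenic model (26 above 0, 16 below) beside 0.0058 over all genes, and 0.04 after ACAT2 ASO (29 above, 13 below) beside -0.00056 over all genes. With the mean of all probe sets of a gene the ASO median was 0.0039, with 21 genes above 0 and 21 below. Leaving out single arrays gave ASO medians of 0.0145 (without control ASO 1) to 0.0629 (without control ASO 3), and transgenic medians of 0.0375 (without wild type 5) to 0.0901 (without wild type 2). Leaving out 1 array turned the sign of the change for 11 of the 42 genes in the transgenic and 17 in the ASO model, and moved it by over 1.5 times with its sign kept for a further 17 and 18. Changes as large as 1.41-fold were outside most intervals: the 95% interval lay within 0.5 on the log2 scale for 37 of 42 genes in each model, against 93.3% of all genes in the transgenic and 90.1% in the ASO model. The 5 exceptions were Hsph1, Hsp90aa1, Sdf2l1, Eif2ak3 and Herpud1 in the transgenic model and Hspa1b, Hsph1, Hsp90aa1, Sdf2l1 and Atf6 in the ASO model.

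**Figure D1:**
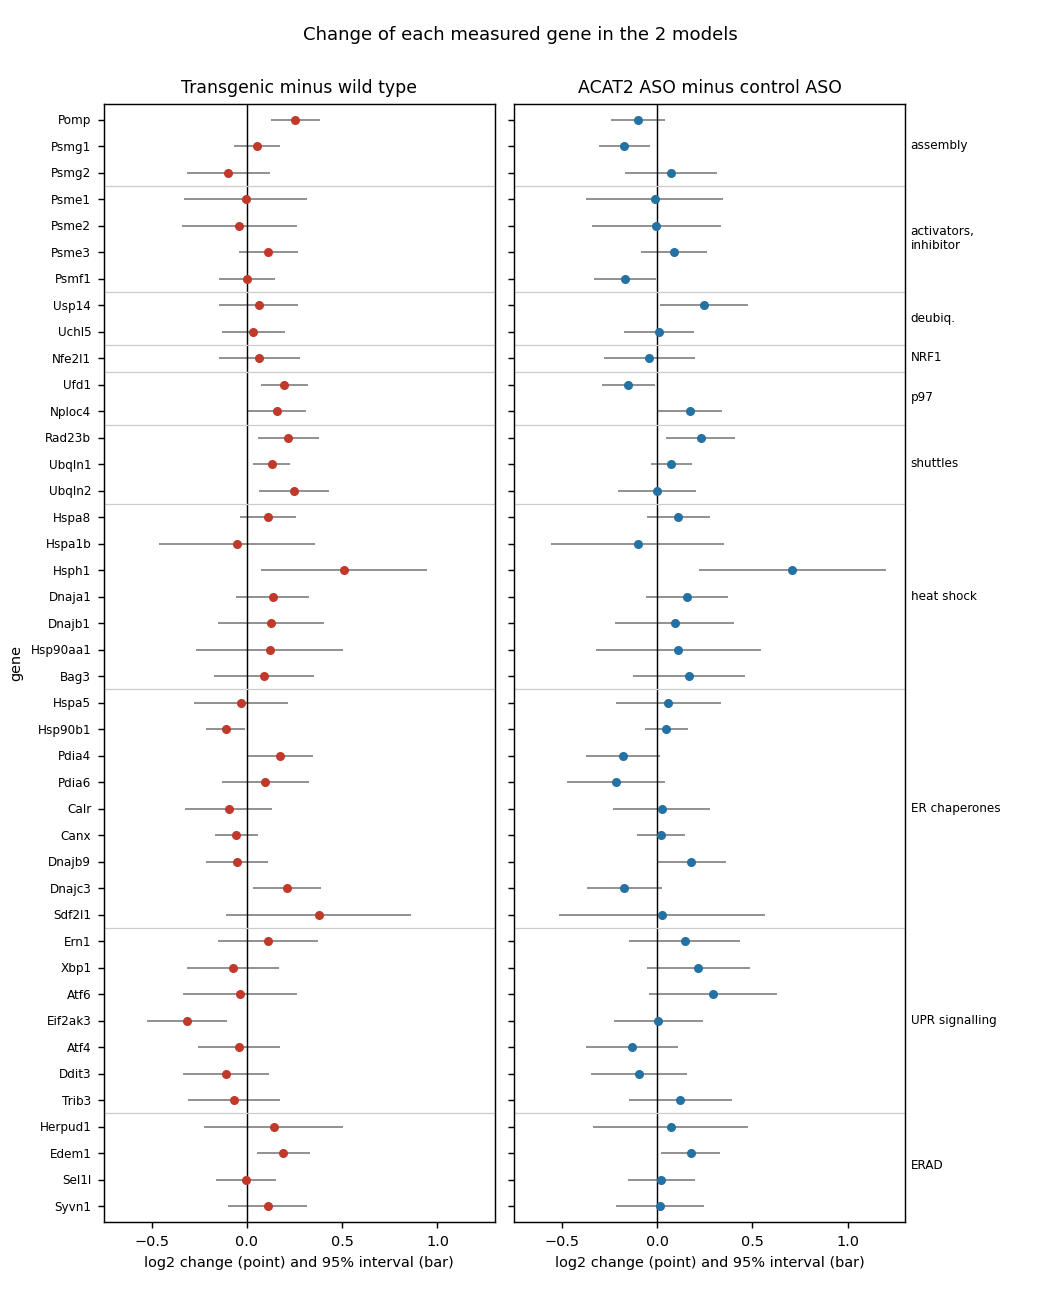
Log2 change (points) with its 95% interval (bars) for each of the 42 genes, grouped by role down the page, in transgenic minus wild type liver (left) and ACAT2 ASO minus control ASO (right). Most intervals cross 0, Hsph1 lies at 0.51 on the left and 0.71 on the right, and Eif2ak3 at -0.31 on the left.

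The core and cap of the proteasome, which many of these genes serve, were measured beside them. All 30 measured 20S and 19S subunits lay above wild type there, with a median log2 change of 0.25, and 11 were called higher. That number was 7 with the arrays of this model alone, and also 7 when wild type 3 or wild type 4 was left out. After ACAT2 ASO 17 of the 30 lay above and 13 below control ASO, with a median of 0.02, and only Psmd2, a scaffold subunit of the cap, was called (log2 change 0.28 ± 0.05, SE, limma adjusted p = 0.0119), a call lost with the arrays of this model alone (limma adjusted p = 0.107) and with the mean of its probe sets (0.13, limma adjusted p = 0.0993). In transgenic liver Psmd2 was called as well (0.31 ± 0.04, SE, limma adjusted p = 0.00392).

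Among the assembly factors, Pomp came nearest to the threshold. Pomp, the maturation protein that guides the joining of 20S half-barrels and is destroyed as the first substrate, read 10.89, 10.91, 10.88, 11.05 and 10.97 on transgenic arrays 1 to 5, against 10.65, 10.87, 10.67, 10.73 and 10.52 on wild type arrays 1 to 5. All 5 transgenic arrays lay above all 5 wild type arrays, the closest being transgenic 3 at 10.88 and wild type 2 at 10.87. Groups were apart in this way, with transgenic higher, for 3 of the 42 genes (Pomp, Ufd1 and Nploc4), beside 1.42% of all genes, and with transgenic lower for 0 of 42, beside 0.801%. The means were 10.94 ± 0.07 and 10.69 ± 0.13 (SD, n = 5 each), a log2 change of 0.25 ± 0.06 (SE) with a limma adjusted p of 0.0914. Without wild type 2, one of the arrays with high Kupffer cell markers, Pomp was called, with a change of 0.30 and a limma adjusted p of 0.0405. In the ASO model it read 10.73, 10.67, 10.54 and 10.55 after ACAT2 ASO, against 10.68, 10.69, 10.70 and 10.82 after control ASO, and the groups overlapped (change -0.10 ± 0.07, SE, limma adjusted p = 0.571).

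Psmg1 and Psmg2 encode the partners PAC1 and PAC2, which start the outer ring of the core. Psmg1 read 7.96, 8.17, 8.08 and 7.99 after ACAT2 ASO, against 8.27, 8.30, 8.28 and 8.04 after control ASO. Control ASO array 4 lay within the ACAT2 ASO range and the other 3 control arrays above it. The change was -0.17 ± 0.06 (SE, limma adjusted p = 0.233), and it was -0.23 without control ASO 4 (limma adjusted p = 0.0892). Psmg1 groups overlapped in the transgenic model, with means of 8.44 ± 0.06 for transgenic and 8.38 ± 0.07 for wild type arrays (SD, n = 5 each). Psmg2 read 8.22, 8.06, 7.88, 7.93 and 8.00 in transgenic liver, against 8.27, 8.21, 8.22, 8.10 and 7.78 in wild type liver. Wild type 5 was the lowest of all and the change of -0.10 ± 0.10 (SE) had a limma adjusted p of 0.807. Its other probe set had a log2 change of -0.04. Psmg3, from the wider list of ubiquitin and shuttle genes, had a log2 change of 0.25 ± 0.06 in transgenic liver (SE, limma adjusted p = 0.0851).

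The 11S activator subunits Psme1 and Psme2, which open the core and are interferon-inducible, had group means within 0.04 of each other in both models and wide differences between single arrays. Psme1 read 10.20, 10.12, 10.23, 10.37 and 10.38 in transgenic liver, against 10.20, 10.77, 10.29, 10.10 and 9.98 in wild type liver. It read 10.18, 9.77, 9.62 and 9.62 after ACAT2 ASO, against 9.61, 9.72, 9.60 and 10.31 after control ASO. The highest arrays were wild type 2, ACAT2 ASO 1 and control ASO 4, and the changes were -0.01 ± 0.15 and -0.01 ± 0.17 (SE). Psme2 was highest on the same 3 arrays of these groups, at 11.12, 10.31 and 10.58. On these arrays Psme1 and Psme2 together lay 0.53, 0.29 and 0.48 above their group means, the 3 immunoproteasome subunits Psmb8, Psmb9 and Psmb10 lay 0.88, 0.69 and 1.09 above, and the 8 Kupffer cell markers by the amounts given above. In bulk liver, more cells of a type and more RNA per cell cannot be told apart. The mean Kupffer marker level spanned 7.53 to 8.34 in transgenic and 7.39 to 9.26 in wild type liver, and 7.03 to 8.90 after ACAT2 ASO and 7.03 to 8.44 after control ASO, and the part of these cells in the Psme1 and Psme2 values was not tested. After ACAT2 ASO the Kupffer markers lay above control ASO in 8 of 8 genes (median 0.45, 0 called) and the immunoproteasome subunits below in 3 of 3 (median -0.34, 0 called).

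Psme3, the nuclear activator, had a log2 change of 0.11 in transgenic liver and 0.09 after ACAT2 ASO, and its second, dimmer probe set had the opposite sign in both. Psmf1, the proteasome inhibitor PI31, read 7.14, 7.02, 6.79 and 6.90 after ACAT2 ASO, against 7.09, 7.05, 7.09 and 7.30 after control ASO. ACAT2 ASO arrays 2 to 4 lay below all control arrays, array 1 did not, and the change was -0.17 ± 0.08 (SE, limma adjusted p = 0.352). Of its 3 other probe sets, 1 had a log2 change of -0.02 there and the other two by -0.33 and -0.31. In transgenic liver these gave -0.11, 0.09 and 0.23, and the main probe set averaged 7.71 ± 0.09, against 7.71 ± 0.08 in wild type liver (SD, n = 5 each).

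Of the deubiquitinases, Usp14, which trims ubiquitin at the 19S cap, read 6.99, 6.56, 6.79 and 6.80 after ACAT2 ASO, against 6.34, 6.71, 6.65 and 6.47 after control ASO. ACAT2 ASO 2 lay within the control range and the other 3 above it (change 0.25 ± 0.11, SE, limma adjusted p = 0.337). In transgenic liver Usp14 had a log2 change of 0.06 ± 0.10 (SE). Uchl5, its partner enzyme at the cap, had a log2 change of 0.03 and 0.01. Nfe2l1 encodes NRF1, the ER-anchored factor that drives proteasome subunit genes when the proteasome is impaired. It read 7.62, 7.67, 7.78, 7.73 and 7.73 in transgenic liver, against 7.53, 7.81, 7.64, 7.73 and 7.50 in wild type liver, and the groups overlapped (change 0.07 ± 0.10, SE, limma adjusted p = 0.886). With ACAT2 ASO it read 7.25, 7.52, 7.80 and 7.93, against 7.81, 7.64, 7.68 and 7.53 after control ASO, and ACAT2 ASO arrays held both the lowest and the highest value.

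Both measured p97 adaptors of the 51-gene list lay apart from wild type in transgenic liver, though neither passed the test. The p97 cofactor gene Nsfl1c, from the wider list, was called there and is given below. Ufd1 and Nploc4 bind each other and steer p97 to ubiquitinated proteins. Ufd1 read 8.00, 7.86, 7.92, 7.95 and 7.85 on transgenic arrays, against 7.81, 7.70, 7.72, 7.72 and 7.66 on wild type arrays, with no overlap. The means were 7.92 ± 0.06 and 7.72 ± 0.06 (SD, n = 5 each), and the change of 0.20 ± 0.06 (SE) had a limma adjusted p of 0.206. Its other probe set gave 0.22. After ACAT2 ASO Ufd1 read 7.73, 7.39, 7.73 and 7.50, against 7.71, 7.75, 7.74 and 7.75 after control ASO. ACAT2 ASO arrays 2 and 4 lay well below the narrow control range and arrays 1 and 3 inside it (change -0.15 ± 0.07, SE, limma adjusted p = 0.327). Without ACAT2 ASO 2 that change was -0.08.

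Nploc4 read 7.37, 7.20, 7.41, 7.22 and 7.35 in transgenic liver, against 7.20, 7.17, 7.13, 7.14 and 7.13 in wild type liver. The groups just met without overlap at the second decimal, and the change was 0.16 ± 0.07 (SE, limma adjusted p = 0.446). On ACAT2 ASO arrays it read 7.10, 6.73, 6.97 and 6.94, against 6.54, 6.79, 6.80 and 6.93 after control ASO, with overlap and a change of 0.17 ± 0.08 (SE, limma adjusted p = 0.373). Without control ASO 1, the lowest array, that change was 0.10. A further p97 cofactor from the wider list, Nsfl1c (p47), was called in transgenic liver, at 9.17 ± 0.09 against 8.88 ± 0.04 in wild type liver (SD, n = 5 each), a change of 0.30 ± 0.05 (SE, limma adjusted p = 0.00912). With the arrays of this model alone it was not called (limma adjusted p = 0.0839). After ACAT2 ASO the change of Nsfl1c was 0.01 ± 0.05 (SE, limma adjusted p = 0.965). It was the 1 called gene among 12 measured in that list, whose median change was 0.03.

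All 3 measured shuttles of the 51-gene list lay above wild type in transgenic liver at an unadjusted limma p under 0.05. That class held 6.36% of all genes. In the wider list of ubiquitin and shuttle genes, which holds the further ubiquilin gene Ubqln4, it held 3 of 12 (25%). In that list 7 genes lay above 0 and 5 below. Shuttles bind ubiquitin chains with one end and the proteasome with the other. Rad23b, which also serves DNA repair, read 7.10, 7.06, 7.40, 7.07 and 7.01 in transgenic liver, against 7.09, 6.77, 6.90, 6.92 and 6.87 in wild type liver. Transgenic 3 was the highest and wild type 1 lay inside the transgenic range (change 0.22 ± 0.08, SE, limma adjusted p = 0.289). Under ACAT2 ASO it read 7.26, 7.49, 7.22 and 7.20, against 7.0, 7.07, 7.15 and 7.04 after control ASO. Here all 4 ACAT2 ASO arrays lay above all 4 control arrays, as they did for 2 of the 42 genes (Rad23b and Edem1), beside 4.39% of all genes. For 0 of 42 did all ACAT2 ASO arrays lie below, beside 4.67% of all genes. The change was 0.23 ± 0.09 (SE, limma adjusted p = 0.24). A second probe set gave 0.25 in the transgenic and 0.26 in the ASO model, and its dimmest 0.02 and 0.09.

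Ubqln1 and Ubqln2 encode ubiquilins. Ubqln1 read 10.11, 10.08, 10.12, 10.01 and 9.92 in transgenic liver, against 9.98, 9.84, 9.96, 9.86 and 9.96 in wild type liver. Only transgenic 5 lay below the highest wild type array, and the change was 0.13 ± 0.05 (SE, limma adjusted p = 0.299). Both dimmer Ubqln1 probe sets were slightly below 0, at -0.05 and -0.01. Ubqln2 read 9.18, 9.04, 9.47, 9.23 and 9.15 in transgenic liver, against 8.93, 9.14, 8.97, 9.0 and 8.81 in wild type liver. Transgenic 2 lay inside the wild type range, under wild type 2, and the change was 0.25 ± 0.09 (SE, limma adjusted p = 0.289). The 2 dimmer Ubqln2 probe sets gave 0.09 and -0.01. After ACAT2 ASO the changes were 0.08 for Ubqln1 and 0.00088 for Ubqln2.

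**Figure D2:**
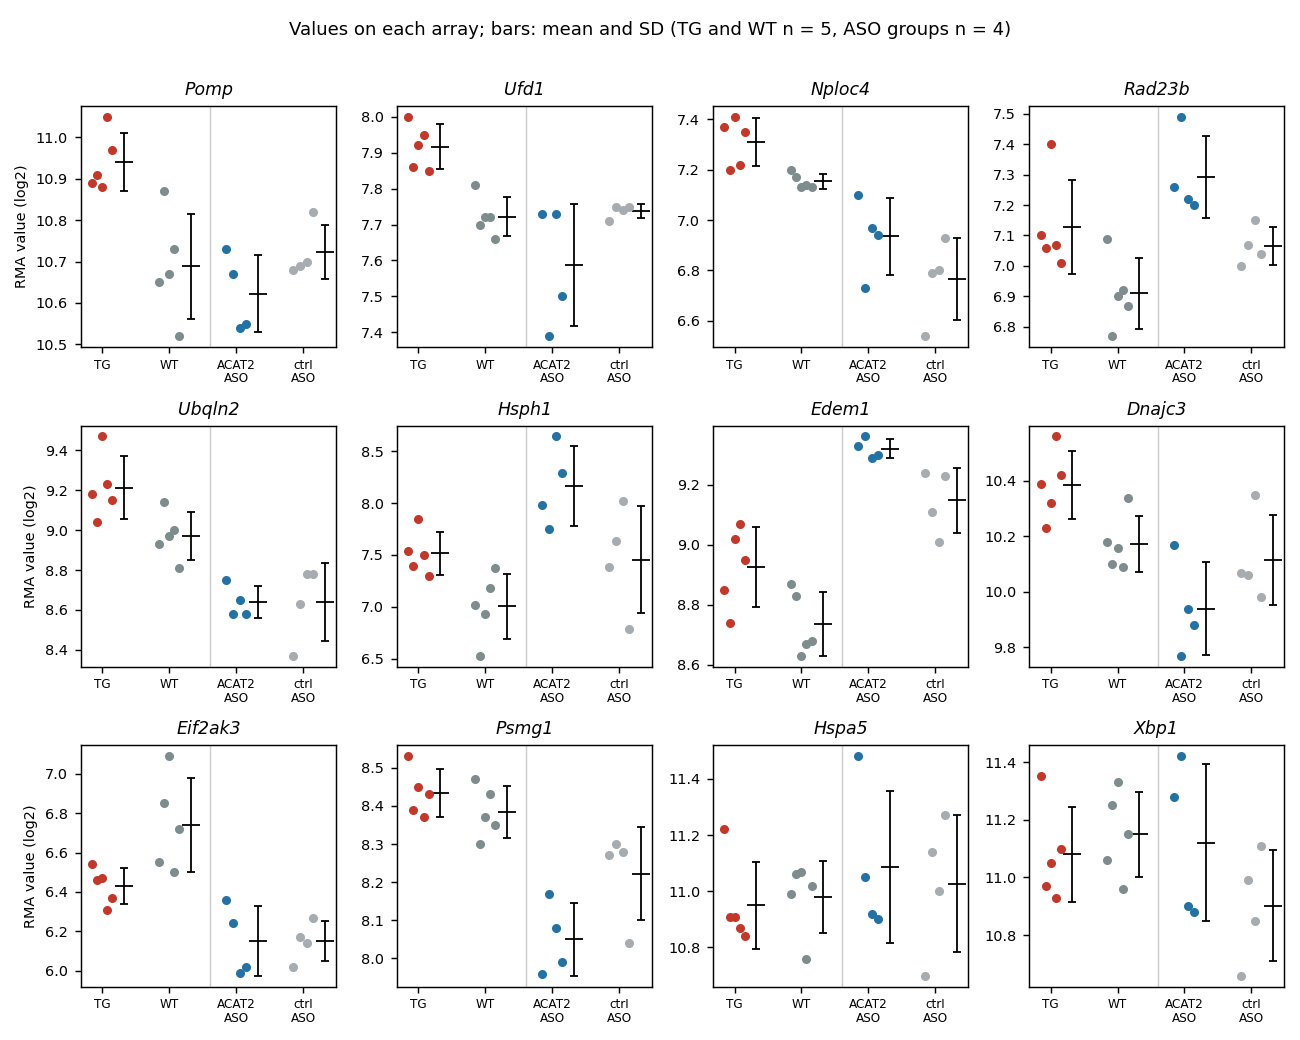
RMA values (log2, vertical axes) on each array for 12 genes. Groups run transgenic (TG), wild type (WT), ACAT2 ASO and control ASO from left to right, points are arrays, bars are the mean and SD, and levels should be read only within a gene and within a model. TG points of Pomp, Ufd1 and Nploc4 lie above all WT points, and ACAT2 ASO points of Rad23b and Edem1 above all control ASO points.

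Of the 7 measured cytosolic heat shock chaperone genes, 6 lay above 0 in each model, with median log2 changes of 0.12 in transgenic liver and 0.11 after ACAT2 ASO, and none was called. The ASO count was 4 above and 3 below 0 without ACAT2 ASO 3 or without control ASO 4, and 7 above without ACAT2 ASO 2 or without control ASO 3. Hsph1 had the largest change of the 42 genes in both models. It encodes Hsp110, which recharges Hsp70 by nucleotide exchange. Hsph1 read 7.54, 7.39, 7.85, 7.50 and 7.30 in transgenic liver, against 7.02, 6.53, 6.93, 7.18 and 7.37 in wild type liver. Wild type 2 was the lowest of the 10 arrays and only wild type 5 reached into the transgenic range (means 7.52 ± 0.21 and 7.01 ± 0.31, SD, n = 5 each). The change was 0.51 ± 0.21 (SE, limma adjusted p = 0.372), and 0.39 without wild type 2. After ACAT2 ASO it read 7.98, 7.75, 8.64 and 8.29, against 7.38, 7.63, 8.02 and 6.79 after control ASO (means 8.16 ± 0.39 and 7.45 ± 0.51, SD, n = 4 each). The groups overlapped through control ASO 3, and the change was 0.71 ± 0.23 (SE, limma adjusted p = 0.168). Leaving out single arrays gave 0.49 without control ASO 4 to 0.90 without control ASO 3.

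Hspa1b, an inducible Hsp70 gene and the usual readout of the heat shock response, lay close to its controls on average. It read 7.30, 7.10, 6.73, 7.19 and 6.98 in transgenic liver, against 6.88, 7.31, 7.02, 7.30 and 7.06 in wild type liver (change -0.05 ± 0.19, SE, limma adjusted p = 0.96). In the ASO model it read 7.09, 6.60, 7.59 and 7.16 after ACAT2 ASO, against 7.19, 7.17, 7.85 and 6.64 after control ASO (change -0.10 ± 0.22, SE, limma adjusted p = 0.896). The groups overlapped over most of their range in both models. Its probe sets may not separate Hspa1b from its near-identical neighbour Hspa1a, so the value may belong to either. The constitutive Hsp70 gene Hspa8 had a log2 change of 0.11 and 0.11 in the transgenic and the ASO model. Its 3 other probe sets lay between -0.13 and -0.04 in transgenic liver, and gave 0.18, 0.15 and -0.45 after ACAT2 ASO. With the mean of its probe sets Hspa8 lay below 0 in both models, at -0.03 and -0.0028. Its J-domain partners gave 0.13 and 0.16 for Dnaja1 and 0.13 and 0.09 for Dnajb1, in the transgenic and the ASO model. Their other probe sets gave 0.28 and 0.02 for Dnaja1 and -0.04 and 0.09 for Dnajb1. Hsp90aa1, the inducible cytosolic Hsp90, gave 0.12 and 0.11. Without ACAT2 ASO 3 the ASO changes of Hsp90aa1 and Dnajb1 were both -0.05, and without ACAT2 ASO 2 they were 0.33 and 0.21. That of Hspa1b was 0.11 without control ASO 3. The Hsp70 co-chaperone Bag3 gave 0.09 and 0.17. Of 18 other heat shock genes, 11 lay above 0 in the transgenic and 13 in the ASO model, and 0 were called in either. In the transgenic model 4 (22.2%) had an unadjusted limma p under 0.05, beside 10.9% of all genes. In the ASO model 2 (11.1%) did, beside 13.3%.

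Within the groups of the ASO model the heat shock genes were high or low together. On ACAT2 ASO 3 all 7 genes were the highest of their group, and on ACAT2 ASO 2 all 7 were the lowest. On control ASO 3 all 7 were again the highest, and on control ASO 4 the lowest in 6 of 7. The mean difference from the group was 0.36 on ACAT2 ASO 3 and -0.39 on ACAT2 ASO 2, and 0.33 on control ASO 3 and -0.31 on control ASO 4. The 18 other heat shock genes showed 17 of 18 above the group mean on ACAT2 ASO 3 (0.16 on average) and 3 of 18 on ACAT2 ASO 2 (-0.14), and 16 of 18 on control ASO 3 (0.15) and 3 of 18 on control ASO 4 (-0.17). In the other model the mean difference of the 7 genes lay between -0.05 and 0.11 on transgenic arrays and between -0.07 and 0.11 on wild type arrays. Control ASO 4 was also an array with high Kupffer cell markers, whereas Kupffer markers were 0.81 below the group mean on ACAT2 ASO 3 and at 0.0006 on ACAT2 ASO 2. Their part in the heat shock values was not tested.

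**Figure D3:**
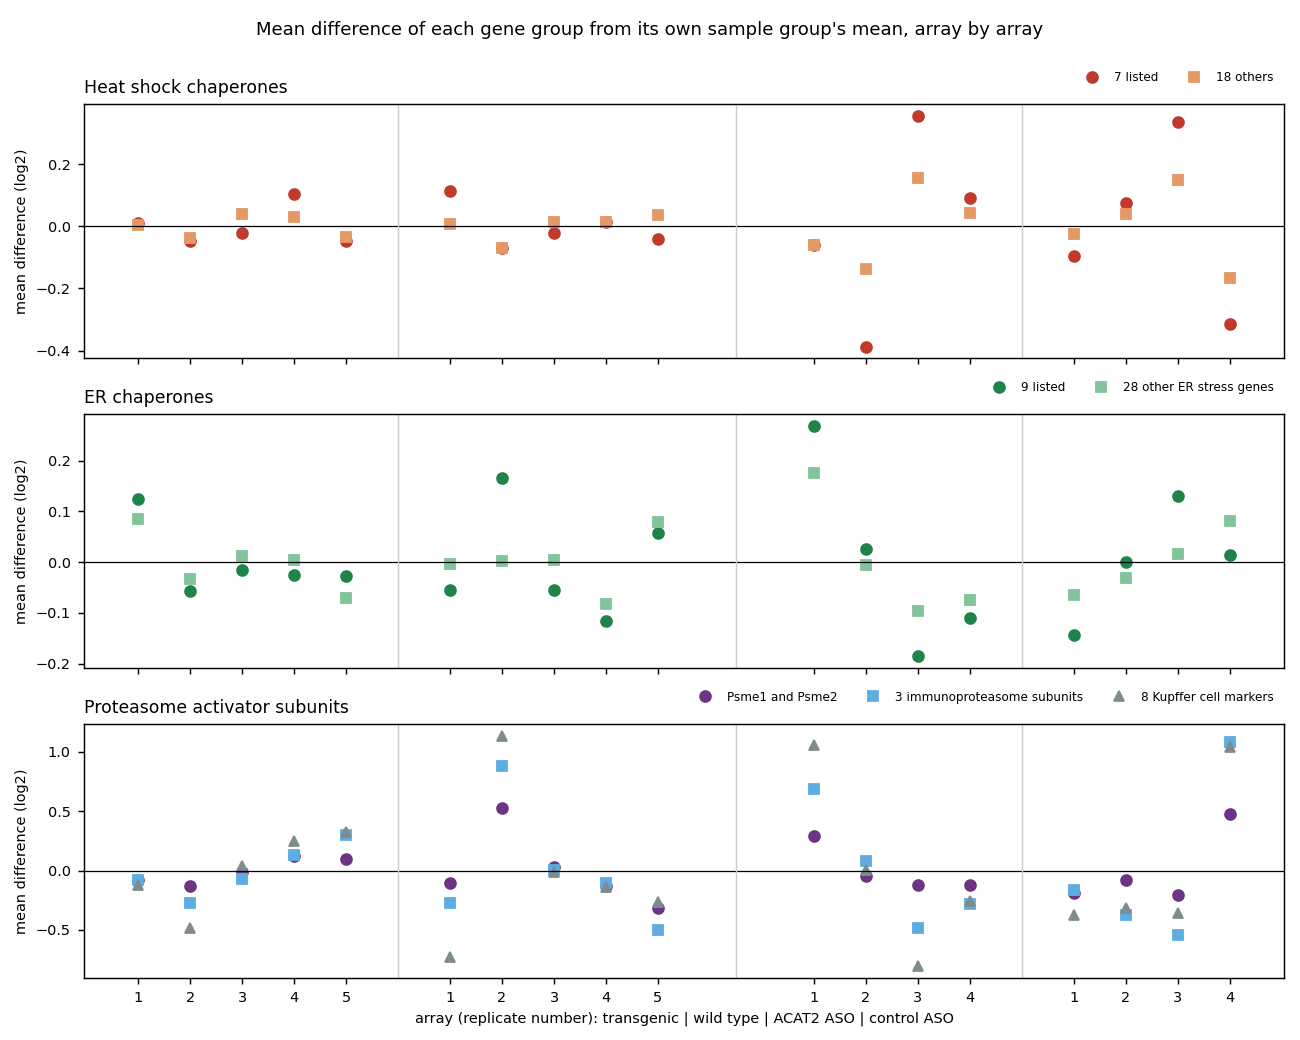
Mean log2 difference of gene groups from the mean of the array's own sample group (vertical axes) on each of the 18 arrays (horizontal axis, transgenic, wild type, ACAT2 ASO and control ASO from left to right). The heat shock genes reach 0.36 on ACAT2 ASO 3 and -0.39 on ACAT2 ASO 2, and Psme1 and Psme2 lie high with the immunoproteasome and Kupffer marker points on wild type 2, ACAT2 ASO 1 and control ASO 4.

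The ER chaperones showed no common direction. In transgenic liver 4 of 9 lay above 0 and 5 below (median -0.03), and after ACAT2 ASO 6 above and 3 below (median 0.02). The ASO count turned to 2 above and 7 below without ACAT2 ASO 1 (median -0.09), to 3 above and 6 below without control ASO 1 (median -0.05), and to 3 above and 6 below with the mean of all probe sets of a gene (median -0.03). Without ACAT2 ASO 1 the changes of Hspa5 (-0.07), Calr (-0.09), Canx (-0.02) and Sdf2l1 (-0.24) lay below 0. Hspa5, which encodes BiP, the Hsp70 of the ER and the usual UPR readout, read 11.22, 10.91, 10.91, 10.87 and 10.84 in transgenic liver, against 10.99, 11.06, 11.07, 10.76 and 11.02 in wild type liver. Transgenic 1 stood high and wild type 4 low, and the change was -0.03 ± 0.12 (SE, 95% interval -0.28 to 0.22, limma adjusted p = 0.959). With ACAT2 ASO it read 11.48, 11.05, 10.92 and 10.90, against 10.70, 11.14, 11.0 and 11.27 after control ASO (change 0.06 ± 0.13, SE, 95% interval -0.22 to 0.33, limma adjusted p = 0.903). Its second probe set gave -0.03 and 0.0042.

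Hsp90b1, which encodes GRP94, the Hsp90 of the ER, read 11.48, 11.42, 11.39, 11.35 and 11.28 in transgenic liver, against 11.52, 11.55, 11.55, 11.39 and 11.47 in wild type liver. Wild type 4 and 5 lay inside the transgenic range, and the change was -0.11 ± 0.05 (SE, limma adjusted p = 0.397), with -0.05 from its other probe set. On the ASO arrays it read 11.39, 11.23, 11.23 and 11.24 after ACAT2 ASO, against 11.17, 11.25, 11.24 and 11.25 after control ASO, with ACAT2 ASO 1 highest and control ASO 1 lowest (change 0.05 ± 0.05, SE). The other probe set gave -0.11 there, the opposite sign. Calreticulin and calnexin are lectin chaperones, which hold sugar-bearing proteins while they fold. Calr read 10.66, 10.65, 10.49, 10.54 and 10.50 in transgenic liver, against 10.57, 10.93, 10.58, 10.58 and 10.67 in wild type liver (change -0.10 ± 0.11, SE), and wild type 2 was the highest array. Canx read 11.20, 10.98, 11.10, 11.04 and 11.14 in transgenic liver, against 11.13, 11.22, 11.06, 11.10 and 11.23 in wild type liver (change -0.06 ± 0.05, SE). After ACAT2 ASO the changes were 0.03 for Calr and 0.02 for Canx, and the groups overlapped in both models. Their second probe sets gave 0.01 and -0.06 in transgenic liver and -0.07 and -0.08 after ACAT2 ASO.

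The disulfide isomerases lay above 0 in transgenic liver and below 0 after ACAT2 ASO. Pdia4 read 8.38, 8.28, 8.04 and 7.98 after ACAT2 ASO, against 8.22, 8.51, 8.49 and 8.18 after control ASO (change -0.18 ± 0.09, SE, limma adjusted p = 0.421, and -0.11 without ACAT2 ASO 4). In transgenic liver it averaged 8.57 ± 0.04, against 8.40 ± 0.11 in wild type liver (SD, n = 5 each, change 0.17 ± 0.08, SE, limma adjusted p = 0.459). Pdia6 read 9.06, 8.76, 8.40 and 8.60 after ACAT2 ASO, against 8.92, 8.84, 9.09 and 8.84 after control ASO. ACAT2 ASO 1 lay high and the other 3 below all control arrays (change -0.22 ± 0.12, SE, limma adjusted p = 0.47). Leaving out ACAT2 ASO 1 gave -0.33 and leaving out ACAT2 ASO 3 gave -0.11, and in transgenic liver the change was 0.10. Its dimmer probe set gave 0.09 after ACAT2 ASO.

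Dnajc3 and Dnajb9 encode J-domain partners of BiP. Dnajc3, which also restrains the PERK kinase, read 10.39, 10.23, 10.32, 10.56 and 10.42 in transgenic liver, against 10.18, 10.10, 10.16, 10.09 and 10.34 in wild type liver. Wild type 5 lay inside the transgenic range and the other 4 below it (change 0.21 ± 0.08, SE, limma adjusted p = 0.356). On ACAT2 ASO arrays it read 10.17, 9.77, 9.94 and 9.88, against 10.07, 10.06, 10.35 and 9.98 after control ASO (change -0.17 ± 0.09, SE, limma adjusted p = 0.453), and without control ASO 3 the change was -0.09. The 4 dimmer Dnajc3 probe sets gave -0.0004, 0.36, 0.07 and -0.04 in transgenic liver, and 0.08, -0.25, -0.15 and 0.06 after ACAT2 ASO. Dnajb9 read 9.26, 9.52, 9.45 and 9.33 after ACAT2 ASO, against 9.06, 9.17, 9.32 and 9.29 after control ASO (change 0.18 ± 0.09, SE, limma adjusted p = 0.377). In transgenic liver Dnajb9 read 9.09, 8.85, 9.29, 8.93 and 8.92, against 9.05, 9.11, 9.11, 9.09 and 8.98 in wild type liver, with transgenic 3 highest and transgenic 2 lowest. Sdf2l1, a BiP-associated protein, had the widest spread of the 42 genes, and its changes of 0.38 ± 0.23 and 0.02 ± 0.26 (SE) had limma adjusted p-values of 0.595 and 0.982.

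Like the heat shock genes, the ER chaperones varied together on single arrays. ACAT2 ASO 1 held the highest value of its group for 8 of the 9 genes (0.27 above the group on average), transgenic 1 for 6 of 9 (0.12), wild type 2 for 5 of 9 (0.17) and control ASO 3 for 6 of 9 (0.13). On ACAT2 ASO 1, 25 of 28 further UPR and ERAD genes also lay above the group mean, by 0.18 on average, whereas the heat shock genes lay at -0.06 there. ACAT2 ASO 3, highest for every heat shock gene, was the lowest of its group for 5 of the 9 ER chaperones (-0.19 on average). Kupffer markers were high on ACAT2 ASO 1 and wild type 2 (1.06 and 1.14), and at -0.12 and -0.35 on transgenic 1 and control ASO 3. They were also high on control ASO 4 (1.04), where the ER chaperones lay at 0.01 on average. The part of Kupffer cells in these values was not tested.

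No UPR sensor or effector was called, and Eif2ak3 lay farthest from 0. In transgenic liver 6 of 7 lay below 0 (median -0.07), and after ACAT2 ASO 5 of 7 above (median 0.12). Without wild type 3, 4 of 7 lay below 0 in transgenic liver (median -0.03), and without control ASO 1, 4 of 7 lay above after ACAT2 ASO (median 0.01). Eif2ak3, the PERK kinase that slows translation, read 6.54, 6.46, 6.47, 6.31 and 6.37 in transgenic liver, against 6.55, 6.85, 7.09, 6.50 and 6.72 in wild type liver. Wild type 4 lay inside the transgenic range, the other 4 above it and wild type 3 highest (means 6.43 ± 0.09 and 6.74 ± 0.24, SD, n = 5 each). The change was -0.31 ± 0.10 (SE, limma adjusted p = 0.233), it was -0.22 without wild type 3, and its dimmer probe sets gave -0.02 and -0.10. After ACAT2 ASO Eif2ak3 read 6.36, 6.24, 5.99 and 6.02, against 6.02, 6.17, 6.14 and 6.27 after control ASO (change 0.01 ± 0.11, SE).

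Ddit3, which encodes CHOP, the factor of prolonged ER stress downstream of PERK, read 6.49, 6.31, 6.71, 6.28 and 6.43 in transgenic liver, against 6.25, 6.87, 6.73, 6.42 and 6.50 in wild type liver (change -0.11 ± 0.11, SE, limma adjusted p = 0.783). Under ACAT2 ASO it read 6.31, 6.50, 6.42 and 6.13, against 6.38, 6.40, 6.41 and 6.54 after control ASO (change -0.09 ± 0.12, SE, limma adjusted p = 0.809). Atf4, which acts between PERK and CHOP, had a log2 change of -0.04 and -0.13, and Trib3, a target of both, by -0.07 and 0.12. Groups overlapped for all 3.

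Xbp1, whose transcript IRE1 splices into an active form, read 11.35, 10.97, 11.05, 10.93 and 11.10 in transgenic liver, against 11.06, 11.25, 11.33, 10.96 and 11.15 in wild type liver (change -0.07 ± 0.11, SE, limma adjusted p = 0.892). After ACAT2 ASO it read 11.28, 11.42, 10.90 and 10.88, against 10.66, 10.99, 10.85 and 11.11 after control ASO. ACAT2 ASO 1 and 2 lay above all control arrays and the other two within their range (change 0.22 ± 0.13, SE, limma adjusted p = 0.498), and without ACAT2 ASO 2 the change was 0.12. Its splice forms were not told apart by these values, and 2 of its other probe sets gave 0.20 and 0.22 there and the dimmest 0.11. The sensor Ern1 had a log2 change of 0.11 and 0.14, with other probe sets of mixed sign in transgenic liver, and Atf6 by -0.04 and 0.29 (SE 0.16 for the ASO model), where its other probe set gave -0.04 after ACAT2 ASO. Control ASO 1 held the lowest value of its group for 6 of the 7 UPR genes, at -0.19 on average.

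In the ERAD group Edem1 had an unadjusted limma p under 0.05 in both models, and none of the 4 genes was called. Edem1, a lectin-like protein that hands misfolded glycoproteins to degradation, read 8.85, 8.74, 9.02, 9.07 and 8.95 in transgenic liver, against 8.87, 8.83, 8.63, 8.67 and 8.68 in wild type liver (change 0.19 ± 0.07, SE, limma adjusted p = 0.285). The groups overlapped through transgenic 1 and 2. In the ASO model it read 9.33, 9.36, 9.29 and 9.30 after ACAT2 ASO, against 9.24, 9.11, 9.01 and 9.23 after control ASO, with no overlap (change 0.18 ± 0.07, SE, limma adjusted p = 0.305). Its second probe set gave -0.06 and -0.01, and the mean of both probe sets gave 0.07 and 0.08. The ligase Syvn1 (HRD1) and its partner Sel1l had a log2 change of 0.11 and -0.01 in transgenic liver and by 0.02 and 0.02 after ACAT2 ASO. Herpud1, an adaptor of the same complex, had a log2 change of 0.14 ± 0.17 and 0.07 ± 0.19 (SE), and was 10.09 on transgenic 3 and 9.80 on wild type 2, below every other array of its group. The transgenic change was -0.02 without wild type 2, and the ASO change -0.03 without control ASO 4. Its second probe set gave 0.17 and -0.09. Of 28 further UPR and ERAD genes 0 were called in either model. In transgenic liver 2 (7.14%) had an unadjusted limma p under 0.05, beside 10.9% of all genes. After ACAT2 ASO 1 (3.57%) did, beside 13.3%, so both shares were below those of all genes. These were the ER lectin gene Erlec1 (change 0.20) and the disulfide isomerase gene P4hb (0.16) in transgenic liver, and P4hb (-0.16) after ACAT2 ASO.

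Within groups these genes were more variable than most of all genes, which were not matched to them for level. All 42 lay outside the 40% of genes with the lowest mean, and a comparison at like level was not made. The pooled within-group SD had a median of 0.165 over the 42 genes, against 0.111 over all genes, and 34 of the 42 lay above 0.111. It was 0.398 for Sdf2l1, the widest, and 0.0645 for Ubqln1, the narrowest. Other probe sets were often at odds with the brightest one: of 47 further probe sets of 27 genes, 18 had the opposite sign in the transgenic and 18 in the ASO model. The median SE of the change was 0.099 in the transgenic and 0.110 in the ASO model.

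**Figure D4:**
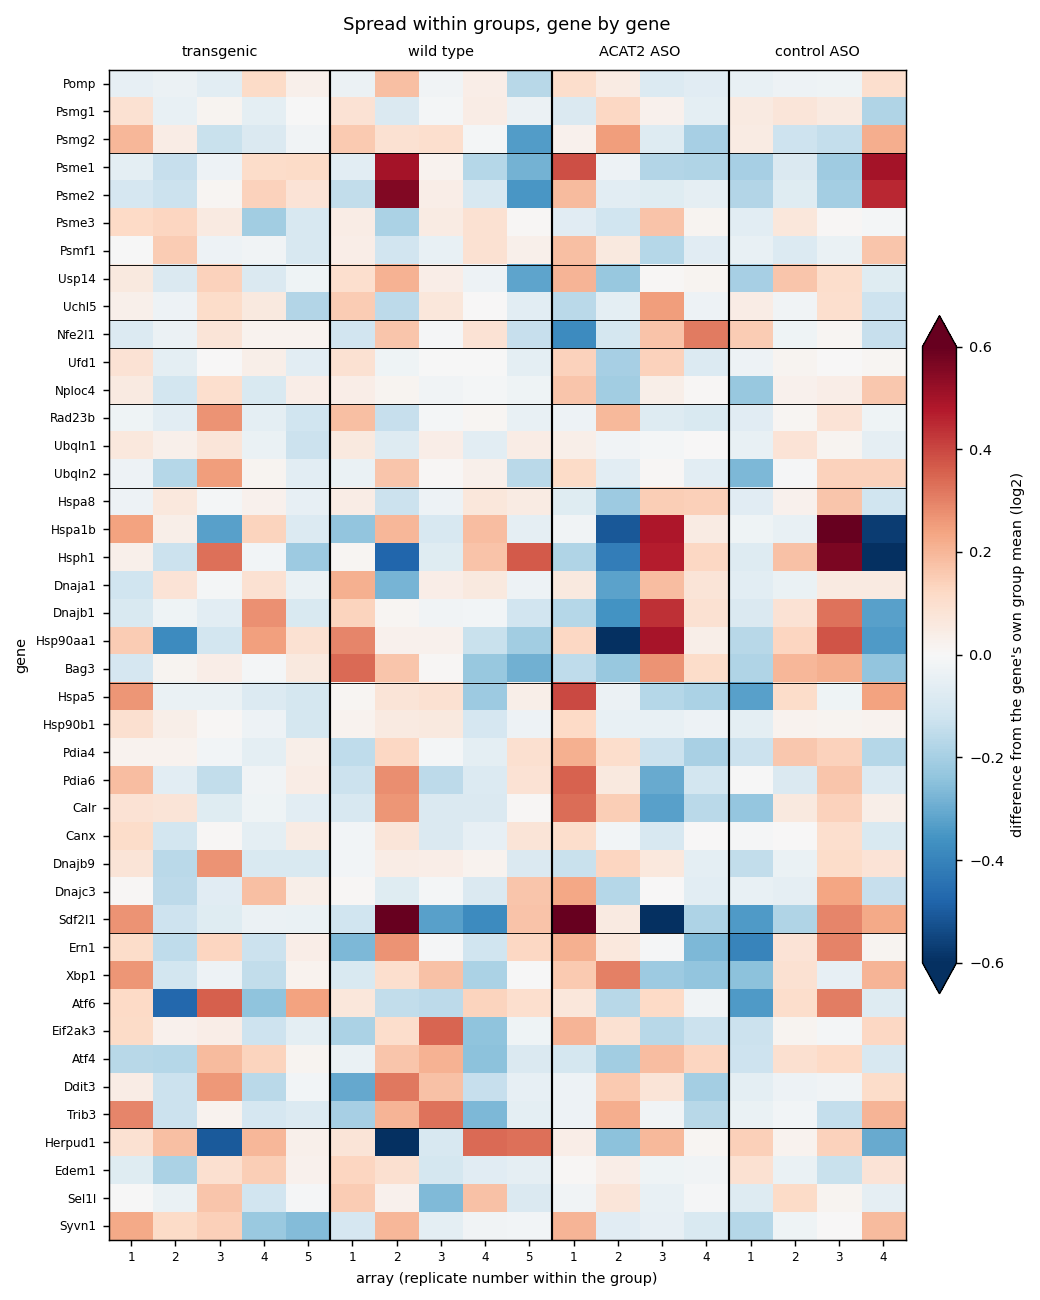
Difference of each gene on each array from its own group mean (log2, colour scale from blue, below, to red, above, cut at 0.6), with genes down the page in the order of their roles and arrays across it. The column blocks of ACAT2 ASO 2 and 3 and control ASO 3 and 4 show the heat shock genes high or low together, and wild type 2 stands out for Psme1, Psme2, Sdf2l1 and Herpud1.

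Set side by side, the models gave 18 genes above 0 in both, 8 above in the transgenic and below in the ASO model, 11 the reverse and 5 below 0 in both. These sign classes were not counted over all genes, so they are not read as a result about the listed genes. An unadjusted limma p under 0.05 in each model was found for 5 genes. Nploc4 (0.16 and 0.17), Rad23b (0.22 and 0.23), Hsph1 (0.51 and 0.71) and Edem1 (0.19 and 0.18) lay above 0 in both. That class held 43 of all genes (0.252%). Ufd1 lay above 0 in transgenic liver and below after ACAT2 ASO, a class not counted over all genes.

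The difference between the effects was tested in the same fit. None of the 42 genes was called (0 of 42), beside 1.07% of all genes, and 7 had an unadjusted limma p under 0.05 (16.7%), beside 15.4% of all genes. Of the 7, 5 were above 0, beside 8.69% of all genes, and 2 below, beside 6.66%. Above 0, for the transgenic effect minus the ASO effect, the lowest p-values were those of Ufd1 (0.35 ± 0.09, SE, limma adjusted p = 0.0694), Pomp (0.35 ± 0.09, SE, limma adjusted p = 0.0702), Dnajc3 (0.38 ± 0.13, SE, limma adjusted p = 0.149) and Pdia4 (0.35 ± 0.12, SE, limma adjusted p = 0.174). Below 0 the lowest p-values were those of Hsp90b1 (-0.16 ± 0.07, SE), Eif2ak3 (-0.32 ± 0.15, SE) and Dnajb9 (-0.23 ± 0.11, SE), with limma adjusted p-values of 0.29, 0.317 and 0.351. The other Hsp90b1 probe set, at -0.05 in the transgenic and -0.11 in the ASO model, puts that difference above 0. Dimmer Dnajc3 probe sets were divided. Those at -0.0004 and 0.08, and at -0.04 and 0.06 (transgenic and ASO model), put its difference below 0. Those at 0.36 and -0.25, and at 0.07 and -0.15, put it above 0. For Pomp the difference was called without wild type 2 (0.40, limma adjusted p = 0.0362). Among the 20S and 19S subunits 28 of 30 differences lay above 0 and 6 were called.

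**Figure D5:**
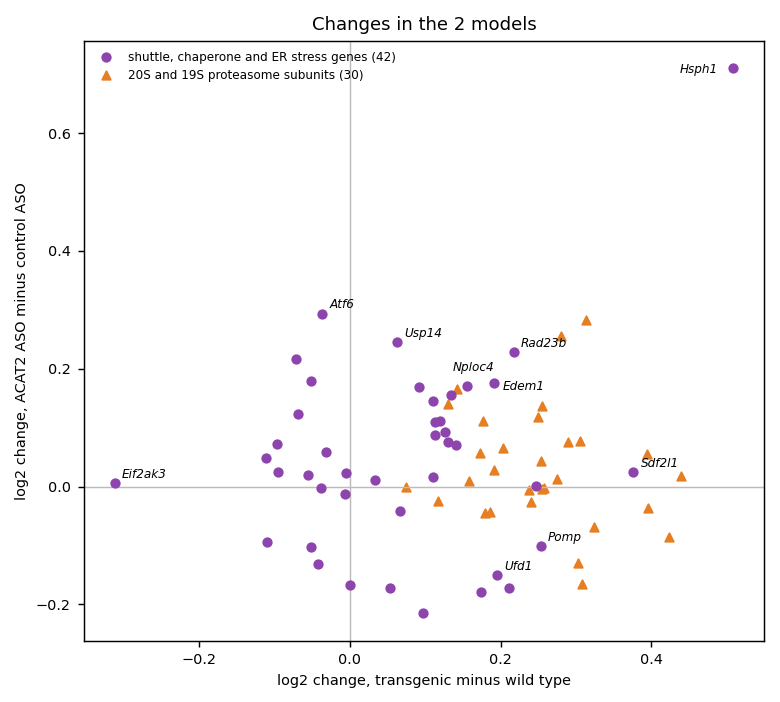
Log2 change in transgenic minus wild type liver (horizontal axis) against the change after ACAT2 ASO minus control ASO (vertical axis), for the 42 genes (circles) and 30 proteasome subunits (triangles), each point a gene. All triangles lie right of 0, whereas the circles spread to both sides on both axes.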

How the data were processed

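Total liver RNA was extracted with Trizol and read on 18 Affymetrix 3′ arrays, per the labels' protocols. The authors deposited values made with RMA, per the submitters' processing notes, and their range shows that they are on the log2 scale. Array medians were 4.61 to 4.65 in the transgenic and 4.38 to 4.40 in the ASO model. Of 45141 probe sets, 28898 have one gene symbol in the platform annotation, 551 several and 15588 none, and 104 are controls. For each of 17097 genes the brightest such probe set on average was used. One limma 3.58.1 fit (R 4.3.3) over the 18 arrays gave both contrasts and their difference, with Benjamini-Hochberg adjustment over all genes, and genes were called at an adjusted p under 0.05. No array pair was identical. The code was tested on simulated data. Members and lists were chosen with earlier results of these data known. Values on every array are given for the 6 genes of smallest unadjusted p above and below 0 in each model, for the 3 per sign of the difference, and for Hspa5, Xbp1, Ddit3, Nfe2l1 and Hspa1b, and array values of Psme1 were added after they were seen. Alternatives were other normalizations, probe set choices, array weights, a replicate block, a stricter threshold and leaving out arrays. The number of arrays limits the precision.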

Additional observations from a re-analysis of the deposited data

Results flagged for a closer look

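In 168 groups of 4 or 5 arrays, 15 held an array far from the others of its group, and chance alone flags about 1 in 20. Control ASO 4 stood apart for 3 proteasome genes: Pomp read 10.82 (others 10.68 to 10.70), Psmg1 8.04 (8.27 to 8.30) and Psmf1 7.30 (7.05 to 7.09). ACAT2 ASO 1 stood high for Psme2 at 10.31 (others 10.04 to 10.06), for Hsp90b1 at 11.39 (11.23 to 11.24) and for Syvn1 at 8.14 (7.84 to 7.88). Wild type 2 stood high for Calr at 10.93 (others 10.57 to 10.67) and for Syvn1 at 8.70 (8.40 to 8.48). These 3 arrays were those with high Kupffer cell markers, whose part in these values was not tested. Transgenic 1 stood high for Hspa5 at 11.22 (others 10.84 to 10.91) and for Sdf2l1 at 7.91 (7.51 to 7.60). Transgenic 3 stood high for Rad23b at 7.40 (others 7.01 to 7.10) and low for Herpud1 at 10.09 (10.62 to 10.79). Dnajb1 was 7.66 on transgenic 4 (others 7.29 to 7.36), Hspa5 10.76 on wild type 4 (10.99 to 11.07) and Hsp90b1 11.17 on control ASO 1 (11.24 to 11.25).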

How the results depend on the processing

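The listed genes stayed at 0 calls in the ASO model under every alternative. In the transgenic model 1 (Pomp) was called without wild type 2 or without the 3 arrays with high Kupffer markers, so leaving out single arrays gave 0 to 1. For the difference of the effects, 1 (Pomp) was called without wild type 2 (range 0 to 1), and 3 (Pomp, Ufd1 and Pdia4) with array weights. The count over all genes moved more. In the transgenic model it was 39, against 13 with the comparison's own arrays, 2 with the replicate block, 17 at an adjusted p under 0.01, and 20 to 58 leaving out single arrays (by over 1.5 times for wild type 3 and 4 and transgenic 4). In the ASO model it was 102, against 17 with its own arrays, 465 with array weights, 18 with the replicate block, 46 without the 3 arrays, 26 at the stricter threshold and 42 to 203 leaving out single arrays (by over 1.5 times for all ACAT2 ASO arrays and control ASO 1 and 2). For the difference it was 183, against 112 after centring, 102 after quantile normalization, 369 with array weights, 12 with the replicate block, 58 without the 3 arrays, 28 at the stricter threshold and 69 to 262 leaving out single arrays (by over 1.5 times for transgenic 1, 3 and 4, wild type 1 and 3, ACAT2 ASO 1, 3 and 4 and control ASO 1, 2 and 3). The comparison's own arrays give no difference of effects. The cause was not tested. The median difference of effects over the 42 genes was 0.0042, against -0.04 after quantile normalization and -0.02 when all probe sets of a gene were averaged. The sign of the change held under all alternatives for 29 of 42 genes in the transgenic and 22 of 42 in the ASO model. None of the 42 was called in the main fit, so no call could reverse. Whether replicate numbers pair the samples could not be settled with 5 transgenic and 4 ACAT2 ASO numbers. Deviations of same-numbered arrays correlated at -0.48 to 0.17 for transgenic and -0.48 to 0.47 for ACAT2 ASO numbers. Of the transgenic arrays 0 correlated best with their own number, and of the ACAT2 ASO arrays 1, ACAT2 ASO 3 with control ASO 3 (0.47). The block called none of the 42. With the block 0 of the 30 proteasome subunits were called in either model or for the difference, and Nsfl1c was not called (limma adjusted p = 0.11).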

Other observations

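Immediate early genes and clock genes, which follow handling and the hour of sampling, were not called in either model (0 of 11 and 0 of 14). At an unadjusted limma p under 0.05 the immediate early genes numbered 0 in each model. The clock genes numbered 0 in the transgenic and 2 in the ASO model, both lower (14.3%), beside 7.63% of all genes. Single arrays still stood apart, as wild type 2 did for the clock genes. Of the 8 Kupffer markers, 1 (12.5%) had an unadjusted limma p under 0.05 after ACAT2 ASO, beside 13.3% of all genes, and none in transgenic liver.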
